A study of Homo sapiens with 9 samples.

Results

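Mitochondrial ribosomal proteins are the nuclear-encoded proteins of the ribosome that works inside mitochondria. Their genes were taken as every protein-coding gene whose symbol begins with MRPL or MRPS and a number, which gave 78 of the 60675 genes in the deposited table, 49 MRPL and 29 MRPS. A further 86 rows with matching symbols are not protein-coding, 74 of them processed pseudogenes, and were left out. The cells were MM.1S, a human multiple myeloma line grown in culture, and the measurement was RNA sequencing of total RNA. Treatment lasted 24 h with EGCG, short for epigallocatechin gallate, a green tea catechin, at 0 µM (the control), 40 or 80 µM. Each dose had 3 libraries, all from this 1 line, and the stated interest of the study is the way EGCG brings about apoptosis in myeloma. Since separate cultures are not named for the replicates in the labels, p-values measure only the spread between these libraries, which may be technical.

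The mitochondrial ribosome translates the few mRNAs of the mitochondrial genome, all of which encode core subunits of the respiratory chain and ATP synthase. It is a hybrid: its rRNAs are transcribed from mitochondrial DNA, while its proteins are made in the cytosol from nuclear genes and imported. The large subunit (MRPL) holds the peptidyl transferase centre and the exit tunnel, and the small subunit (MRPS) binds the mRNA and decodes it. Some of these proteins have bacterial counterparts, and others were gained in mitochondria.

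The labelled cell type was checked on its markers. All 10 plasma cell and myeloma markers passed the filter on low counts, the lowest at 67.2 CPM in the control. CPM is the standard scaling of a count to its library total, here after TMM scaling of the totals. At 80 µM 4 of these 10 markers were lower and 2 higher at an edgeR adjusted p under 0.05 (40% and 20%). The shares over all genes tested were 17.5% and 17.4%. Among 14 markers of other cell types, the T and NK cell markers CD3D and NKG7 were at 0 in all 9 libraries, and 7 of the 14 had under 10 counts over the 9 libraries. CD3E, CD68 and PECAM1 passed the filter, with mean levels of 4.18, 7.09 and 10.8 CPM in the control. CD3E, another T cell marker, and PECAM1, an endothelial and leukocyte marker, were lower at 80 µM, by log2 fold changes of -1.14 ± 0.27 and -1.28 ± 0.19 (edgeR adjusted p = 0.00774 and 0.000671). The summed level of the 14 markers, per library total without TMM scaling, ran from 22.5 to 24.0 CPM among control libraries, from 18.9 to 28.4 at the lower dose and from 11.8 to 14.5 at the higher; its part in the results below was not tested. Library totals ran from 12674490 to 16427343 counts.

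Short stretches of DNA around gene starts are shown first, because many of these genes carry the same few letters there. RefSeq windows on GRCh38.p14, from 250 bases before to 50 bases after a gene's start, were found for 69 of the 78 genes, and the first window listed was used for the 11 genes that had more than 1. The letters CCGGAAG, the core recognised by ETS factors such as GABP, occurred on either strand in 29 of 69 windows, or 42.0%. The same letters were in 14.2% of windows of all protein-coding genes and in 19.7% of those that passed the filter on low counts. The lines below give 5 such windows, each 30 bases, 5′ to 3′ on the gene's strand, with the match in capitals. CTTCCGG is the reverse complement. The stretches of MRPL16, MRPS26 and MRPS12 lie inside the gene as annotated in GENCODE 29, and those of MRPS34 and MRPS18A before it.
MRPL16, chr11:59810767-59810796, minus strand: gagtgaacacaaCTTCCGGccccactgagc
MRPS26, chr20:3046003-3046032, plus strand: ttccccgcgccgCTTCCGGggcacggtggc
MRPS34, chr16:1773188-1773217, minus strand: acctcttcctcgCTTCCGGccgcgaccgaa
MRPS12, chr19:38930927-38930956, plus strand: cacggatagcgcCCGGAAGaggctagaagc
MRPS18A, chr6:43687805-43687834, minus strand: gggcgctacgttCCGGAAGcggaaatggac

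The longer motif of the factor YY1, spelled by the capitals in the lines below, was in 13 of 69 windows, or 18.8%, against 1.9% of all protein-coding windows and 2.9% of those tested. It is shown in 4 genes. In MRPL50, MRPS18A and MRPS30 the match lies after the RefSeq start, and in MRPL52 before it.
MRPL50, chr9:101398576-101398605, minus strand: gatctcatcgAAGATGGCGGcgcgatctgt
MRPL52, chr14:22829779-22829808, plus strand: acgatgacccAAGATGGCGGagccgtgatt
MRPS18A, chr6:43687763-43687792, minus strand: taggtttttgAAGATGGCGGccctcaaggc
MRPS30, chr5:44808950-44808979, plus strand: atcgcgggcaAAGATGGCGGcggccaggtg

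The palindrome recognised by NRF1, a nuclear factor known for driving mitochondrial genes, was in 1 of 69 windows (1.4%), that of MRPL17. It was in 1.8% of all protein-coding windows and in 2.4% of those tested. The 189 bases that lie before every annotated start of MRPL17 are printed because this gene had the largest fall of any member at 80 µM. The capitals mark and spell the match.
MRPL17, chr11:6683402-6683590, minus strand: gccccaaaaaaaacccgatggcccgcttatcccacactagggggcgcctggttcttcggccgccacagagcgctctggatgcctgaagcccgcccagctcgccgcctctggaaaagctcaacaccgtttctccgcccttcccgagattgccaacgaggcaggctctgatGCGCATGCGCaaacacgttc

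The other letters searched, each on both strands, were CACGTG (E-box), in 8.7% of the members' windows against 8.9% of all protein-coding windows, and CCAAT, in 20 of the 69 windows against 36.4%. GGGCGG (SP/KLF factors) was in 60.9%, against 58.5% and 69.8%, and TGATGNAA (amino acid response) in 1.4%, against 2.5% and 1.6%. A match describes the letters and not a bound site, and a window without one says nothing about the factor.

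**Figure D1:**
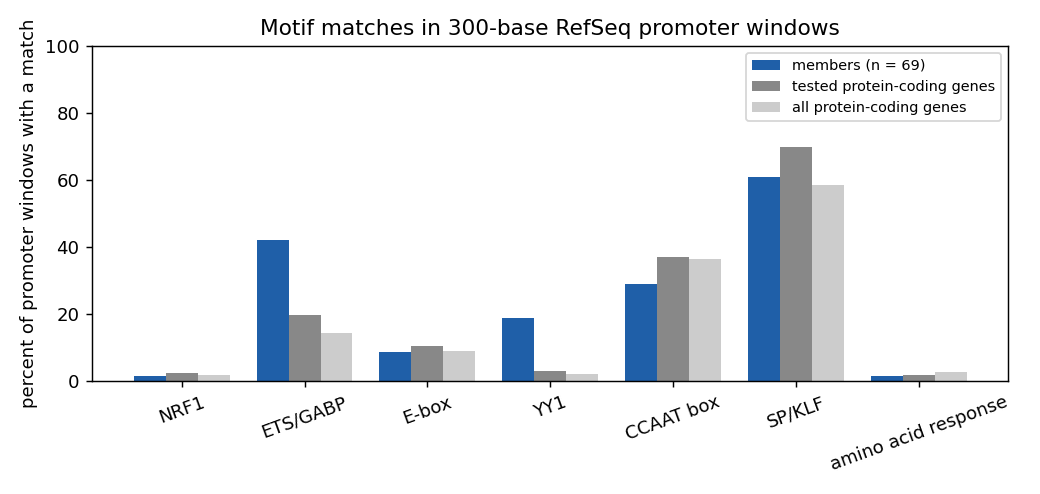
Share of 300-base RefSeq promoter windows that hold each motif on either strand (y axis, percent), for the 69 members with a window, all tested protein-coding genes and all protein-coding genes. ETS/GABP letters were in 42.0% of the members' windows and YY1 letters in 18.8%, against 19.7% and 2.9% of tested protein-coding genes, while the other 5 motifs differed less.

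In untreated cells the members spanned a wide range of levels. The deposited FPKM values scale by a gene length that the sources used here do not give, so ranks between genes depend on it. They ran in the control from 1.48 (MRPL42) to 237.7 (MRPL12) among MRPL genes, with a median of 11.3. Among tested MRPS genes they ran from 0.358 (MRPS12) to 104.3 (MRPS34), with a median of 10.4. The 3 highest members were MRPL12 at 237.7 ± 27.0 FPKM (SD, n = 3), MRPL41 at 131.9 ± 9.41 and MRPS34 at 104.3 ± 11.4. The 3 lowest were MRPL52 at 2.14 ± 0.333, MRPL42 at 1.48 ± 0.903 and MRPS12 at 0.358 ± 0.0756. In CPM, which is not scaled by length, MRPL42 had a mean of 31.3 in the control, above MRPL53 at 10.8. MRPL12 is the stalk protein that recruits translation factors to the ribosome, and MRPS12 is the counterpart of the bacterial decoding-centre protein S12. MRPS12 had 10 to 34 counts per library, so its values are imprecise, and 16.3% of its exonic bases overlap SARS2 on the opposite strand.

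MRPS18B (ENSG00000204568, chr6:30617709-30626395) was listed at 0 in all 9 libraries. Of 31 protein-coding genes within 500 kb of it, 16 were also at 0 (51.6%), against 200 of 1008 elsewhere on the chromosome (19.8%). TUBB, a tubulin that all cells use, was among the genes at 0 there. MRPS18B therefore has no usable value in this table, and 77 members were tested.

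At 40 µM almost none of these genes were called different from the control. Of the 77 tested members 1 was called lower, MRPL4, and 0 were called higher, by edgeR's quasi-likelihood test with a Benjamini-Hochberg adjusted p under 0.05. Over all 15982 genes tested, 2.3% were called, 0.813% lower and 1.49% higher. At an unadjusted p under 0.05, 14 members were lower (18.2%) and 2 higher (2.6%), against 8.93% and 11% of all genes. DESeq2 called 3 lower and 0 higher, where it called 2.56% of all genes lower and 3.12% higher. With limma-voom 1 was lower and 0 higher, against 0.851% and 1.34% of all genes. Falls of 2-fold or more were called for 0 members, against 0.232% of all genes, and 45 of 77 members had a log2 fold change below 0, against 48.2%. The median log2 fold change was -0.03 for MRPL genes and -0.05 for MRPS genes, against 0.01 for all genes tested. Leaving out 1 library moved these medians between -0.11 (without 40 µM replicate 2) and -0.01 (without 40 µM replicate 3) for MRPL genes, and between -0.12 (without control replicate 2) and 0.00 (without 40 µM replicate 3) for MRPS genes. They also moved by over 1.5 times, to -0.09, -0.10, -0.05 and -0.10 for MRPL genes without control replicate 1, 2 or 3 or 40 µM replicate 1. For MRPS genes the median was -0.09 without 40 µM replicate 1 or 2. Each of these moves was smaller than the SD of the per-library median between 40 µM libraries, 0.125 for MRPL and 0.132 for MRPS genes.

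MRPL4 (ENSG00000105364, chr19:10251901-10260045) encodes a large-subunit protein whose bacterial counterpart lines the exit tunnel. It measured 192, 173 and 189 CPM without EGCG, 132, 108 and 132 at 40 µM, then 94.0, 91.1 and 90.7 at 80 µM. The 3 doses did not overlap, and each step was downward. The log2 fold change at 40 µM was -0.57 ± 0.10 (SE; edgeR adjusted p = 0.0207), and at 80 µM it was -1.01 ± 0.11 (adjusted p = 7.78e-05). The call at 40 µM was lost with only the 6 libraries compared (adjusted p = 0.0772) and without control replicate 1 (0.0919), control replicate 3 (0.0608), 40 µM replicate 2 (0.0535) or 40 µM replicate 3 (0.0586). Opposite-strand genes share 21.4% of its exonic bases, with the strand setting of the counting not given in the sources used here.

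At 80 µM many of the genes fell, most by less than 2-fold. The comparison uses the same control libraries as that at 40 µM. Of 77 tested members, 30 were called lower and 0 higher by edgeR's quasi-likelihood test, that is 39.0% lower. Over all genes tested 34.9% were called at this dose, 17.5% lower and 17.4% higher, so the members' share of lower calls stood above the background and their share of higher calls below it. At an unadjusted p under 0.05, 39 members were lower (50.6%) and 1 higher (1.3%), against 22.5% and 22.3% of all genes. DESeq2 called 31 lower and 1 higher, where it called 17.2% of all genes lower and 17.7% higher. With limma-voom 30 were lower and 1 higher, against 17.3% and 17.6% of all genes. The log2 fold change was below 0 for 68 of 77 members, against 50.1% of all genes. In a bulk measurement fewer cells with a transcript and less of it per cell cannot be told apart.

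Among the 30 called members the log2 fold change ran from -1.42 to -0.39 with a median of -0.72, which is 0.605 of the control level. A fall of 2-fold or more was called for 8 members, 6 MRPL and 2 MRPS, against 4.66% of all genes. All 30 called members had every 80 µM library below every control library. In total 43 of 77 members separated in this way downward, against 25.3% of all genes, and 1 upward (MRPL10), against 24.6%. Of the 30, 27 had a mean at 40 µM between the means at 0 and 80 µM.

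**Figure D2:**
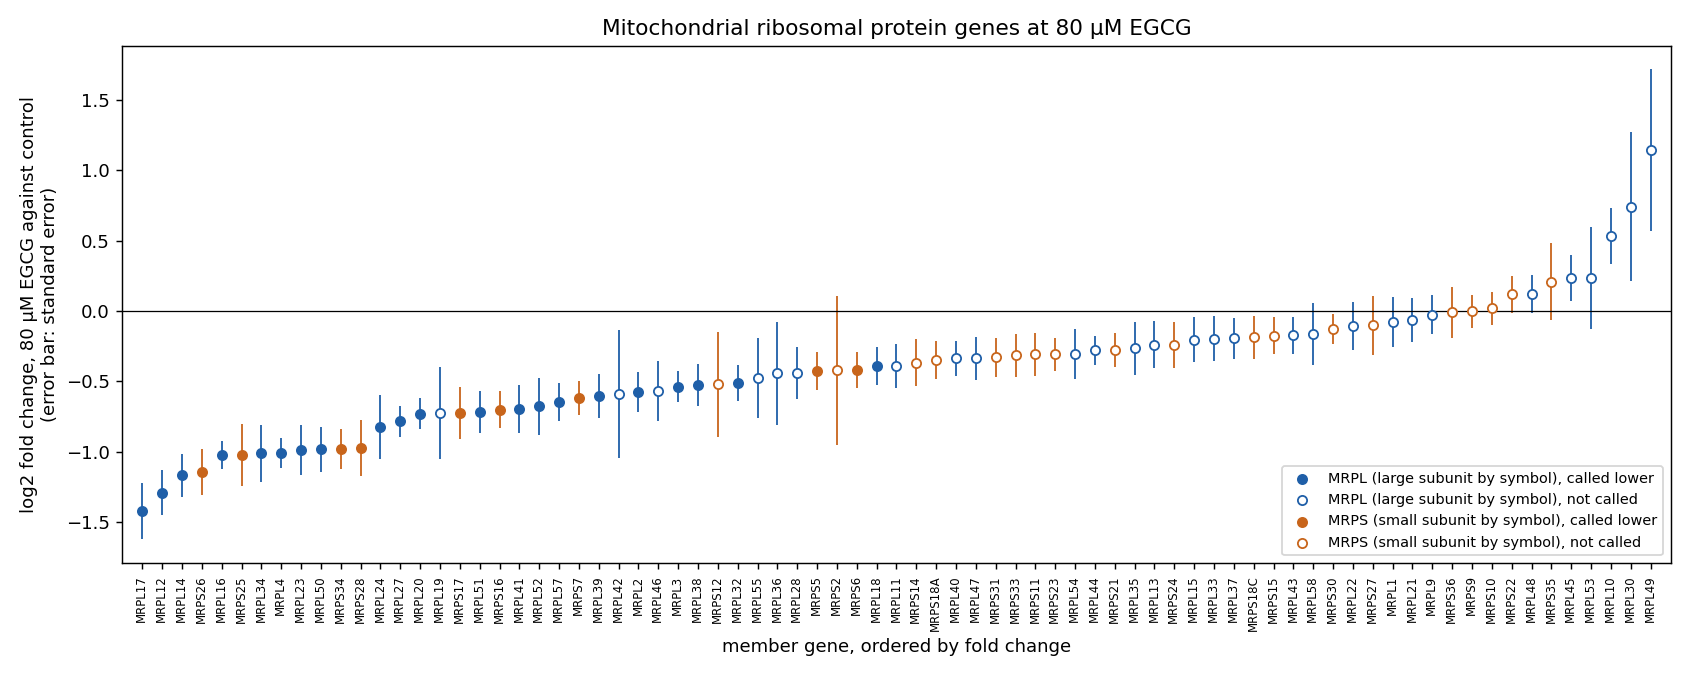
Log2 fold change at 80 µM against control (y axis, with standard error) for the 77 tested members in order of fold change (x axis), filled where called by edgeR. The points run from -1.42 (MRPL17) to 1.14 (MRPL49), 68 of 77 lie below 0, and no filled point lies above 0.

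Both subunits held genes that fell. Of 49 MRPL genes 21 were called lower (42.9%), with a median log2 fold change of -0.44 over the 49. Of 28 tested MRPS genes 9 were called lower (32.1%), with a median of -0.32. Over all genes tested 17.5% were called lower, and the median was 0.00. The difference between the subunits was not tested. The members were also counted by evolutionary origin and by place in the structure. Here MRPS18A and MRPS30 count as large-subunit proteins, and MRPS36 and MRPL55 are left out. On this count 14 of 30 large-subunit proteins with bacterial counterparts fell (median -0.44), as did 7 of 20 specific to mitochondria (-0.32). In the small subunit 6 of 16 tested proteins with bacterial counterparts fell (-0.39), and 3 of 9 mitochondria-specific ones (-0.31).

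The summed level shows the same by library. MRPL genes added up to 2799, 2755 and 3234 CPM without EGCG, 2802, 2736 and 2559 at 40 µM, then 2193, 2045 and 2055 at 80 µM. MRPS genes gave sums of 1762, 1699 and 1977 CPM without EGCG, 1681, 1643 and 1579 at 40 µM, then 1414, 1287 and 1415 at 80 µM. For both sums every 80 µM library lay below all others, while the control and 40 µM libraries overlapped for the MRPL sum. In the MRPS sum every 40 µM library lay below every control library. As a share of all counts the members took 0.472% ± 0.0181 (SD, n = 3) without EGCG. That share was 0.427% ± 0.0169 after 40 µM and 0.351% ± 0.00826 after 80 µM.

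The balance between the subunits depended on the scale. The ratio of summed MRPL to MRPS counts was 1.589, 1.622 and 1.636 without EGCG, 1.667, 1.665 and 1.621 at 40 µM, then 1.551, 1.589 and 1.453 at 80 µM. The 80 µM libraries reached the lowest control value, so the ranges met. Without MRPL12, the MRPL gene with the most counts in the control, the mean ratios were 1.483, 1.542 and 1.459 in that order of dose. On summed FPKM the ratio was 2.309 ± 0.0791 in the control (2.241 to 2.396), 2.229 ± 0.120 at 40 µM and 2.036 ± 0.0476 at 80 µM (2.008 to 2.091), where control and 80 µM did not overlap. No test was made of these ratios.

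**Figure D3:**
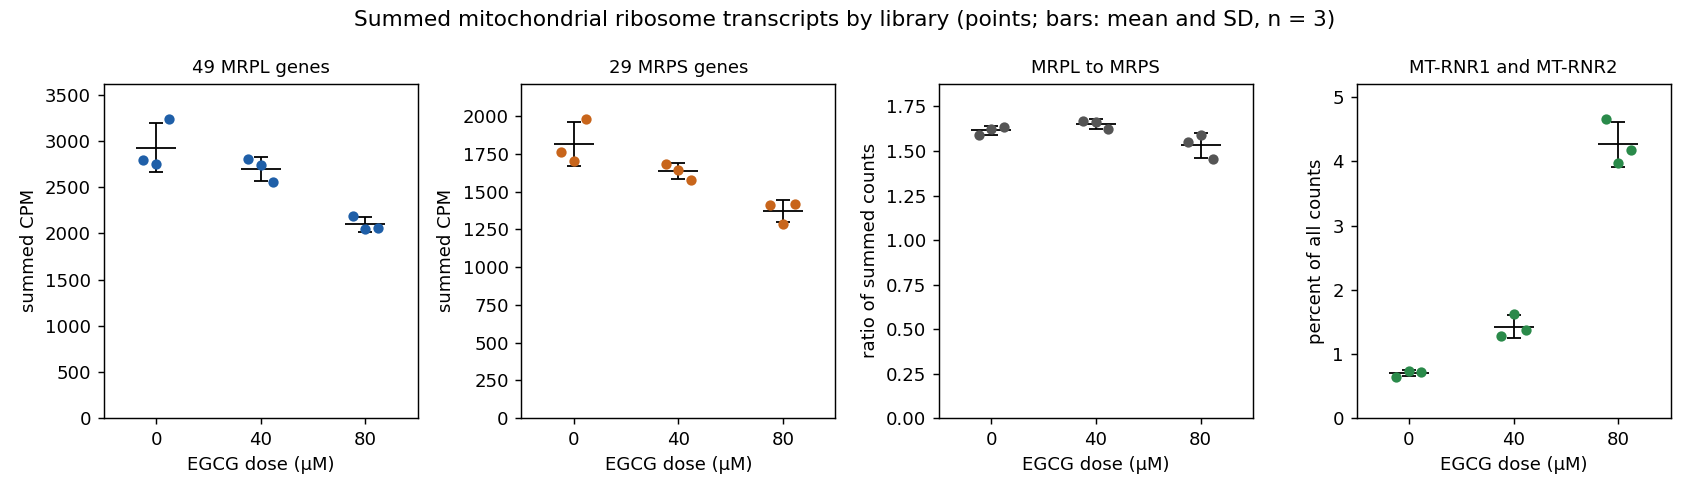
Summed CPM of the 49 MRPL and 29 MRPS genes, their ratio, and the share of all counts taken by the mitochondrial rRNAs MT-RNR1 and MT-RNR2, by EGCG dose; points are libraries and bars the mean and SD of 3. Both protein sums are lowest at 80 µM (2098 and 1372 CPM), the ratio stays between 1.453 and 1.667, and the rRNA share rises from 0.699% to 4.27%.

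The rRNAs that these proteins assemble with went the other way. MT-RNR1, the small-subunit rRNA, had a log2 fold change of 0.98 ± 0.11 at 40 µM and 3.10 ± 0.12 at 80 µM (edgeR adjusted p = 2.27e-07 at 80 µM). MT-RNR2, the large-subunit rRNA, had 1.05 ± 0.14 and 2.54 ± 0.14 (adjusted p = 2.64e-06 at 80 µM). Together they took 0.699% ± 0.0444 of control counts, 1.43% ± 0.181 after 40 µM and 4.27% ± 0.349 after 80 µM. The choice of poly(A) selection or rRNA removal, not given in the sources used here, was not tested for its part in the rRNA levels.

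Among large-subunit genes the largest fall was that of MRPL17 (ENSG00000158042, chr11:6680782-6683401), whose bacterial counterpart sits near the exit of the tunnel and whose upstream DNA is printed above. It measured 57.8, 53.9 and 36.1 CPM without EGCG, 33.0, 32.7 and 45.8 at 40 µM, then 18.4, 20.3 and 16.5 at 80 µM. The control and 40 µM libraries overlapped, and all 80 µM libraries lay below both. The log2 fold change was -1.42 ± 0.20 against control (edgeR adjusted p = 0.000463) and -1.01 ± 0.20 against 40 µM (adjusted p = 0.00578).

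MRPL12 (ENSG00000262814, chr17:81703357-81707526) fell almost as much from a higher level. It measured 224, 214 and 287 CPM without EGCG, 221, 153 and 162 at 40 µM, then 98.2, 93.0 and 105 at 80 µM. Here too 1 library at 40 µM stayed within the control range. The log2 fold change at 80 µM was -1.29 ± 0.16 (edgeR adjusted p = 0.000215). An annotated gene on the same strand, ENSG00000262660, shares 68.2% of its exonic bases, so its count depends on how such reads were assigned, a rule not given in the sources used here.

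Other proteins of the stalk region were not called lower. MRPL10, which anchors the stalk, measured 47.8, 48.9 and 70.0 CPM without EGCG, 57.7, 67.2 and 39.5 at 40 µM, then 83.2, 81.0 and 77.1 at 80 µM. It was the only member whose 80 µM libraries all lay above the control. Its log2 fold change of 0.53 ± 0.20 missed the threshold (edgeR adjusted p = 0.0603), but it was called higher by DESeq2 (0.0323), by limma-voom (0.0484) and with only the 6 libraries compared (0.0294). It was also called higher without control replicate 3 (0.0235), 40 µM replicate 2 (0.0458) or 40 µM replicate 3 (0.0263). MRPL11, at the stalk base, measured 43.5, 42.3 and 59.2 CPM in the control and 40.6, 30.6 and 39.4 at 80 µM. The libraries did not overlap, but its log2 fold change of -0.39 ± 0.16 was not called (adjusted p = 0.0794). The differences between these 3 genes' responses were not tested.

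MRPL14, at the interface between the subunits, measured 59.5, 58.8 and 72.1 CPM without EGCG, 56.2, 47.4 and 40.5 at 40 µM, then 25.8, 27.3 and 31.8 at 80 µM. All 3 doses were separated, and the log2 fold change at 80 µM was -1.16 ± 0.15 (edgeR adjusted p = 0.000285). MRPL16, counterpart of a bacterial protein near the peptidyl transferase centre, measured 104, 98.6 and 115 CPM without EGCG, 88.7, 88.5 and 85.0 at 40 µM, then 55.4, 49.7 and 51.1 at 80 µM. No doses overlapped, and its log2 fold change was -1.02 ± 0.10 (adjusted p = 5.58e-05). MRPL34, a small rRNA-binding protein, measured 29.6, 26.6 and 32.7 CPM without EGCG, 27.0, 31.4 and 20.4 at 40 µM, then 17.6, 15.4 and 10.99 at 80 µM. Its control and 40 µM libraries overlapped, and its log2 fold change at 80 µM was -1.01 ± 0.20 (adjusted p = 0.00337). ABHD8 on the opposite strand shares 13.2% of its exonic bases.

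Of the large-subunit proteins specific to mitochondria, MRPL50 measured 34.5, 32.4 and 29.7 CPM without EGCG, 27.0, 32.5 and 27.5 at 40 µM, then 20.1, 13.9 and 14.96 at 80 µM. The libraries overlapped between the control and 40 µM and not between 40 and 80 µM. Over that second step its log2 fold change was -0.83 ± 0.16 (edgeR adjusted p = 0.00474). MRPL41, second in FPKM in the control, measured 71.5, 72.2 and 88.1 CPM there and 47.5, 45.4 and 50.2 at 80 µM, a log2 fold change of -0.70 ± 0.17 (adjusted p = 0.00995). MRPL52 went from 15.2, 16.8 and 22.4 CPM to 13.2, 11.4 and 9.43 (-0.68 ± 0.20, adjusted p = 0.0254), a call lost without control replicate 3 (0.0899), 80 µM replicate 2 (0.0733) or 80 µM replicate 3 (0.102). MRPL42 was not called: its libraries ran from 20.7 to 52.4 CPM in the control and from 13.7 to 33.8 at 80 µM, which overlap.

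In the small subunit the largest falls were in proteins specific to mitochondria. The lowest log2 fold change among small-subunit proteins with bacterial counterparts, -0.97, was close to that of MRPS34 below. MRPS26 measured 40.8, 40.0 and 47.8 CPM without EGCG, 35.1, 23.3 and 30.3 at 40 µM, then 17.6, 19.5 and 21.1 at 80 µM. The 3 doses did not overlap, and the log2 fold change at 80 µM was -1.14 ± 0.16 (edgeR adjusted p = 0.000465). MRPS34, needed for a stable small subunit and linked to Leigh syndrome when mutated, measured 272, 248 and 334 CPM without EGCG, 233, 174 and 227 at 40 µM, then 150, 132 and 150 at 80 µM. Its doses were also separated, and its log2 fold change was -0.98 ± 0.14 (adjusted p = 0.000586).

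MRPS25 measured 97.8, 95.9 and 80.8 CPM without EGCG, 64.4, 61.3 and 65.1 at 40 µM, then 27.2, 51.3 and 56.6 at 80 µM. It separated from the control at both doses, but 80 µM replicate 1 lay far below the other two libraries of its dose. The log2 fold change at 80 µM was -1.02 ± 0.22 (edgeR adjusted p = 0.00519), and NR2C2 on the opposite strand shares 22.2% of its exonic bases. MRPS12, the low member of the decoding centre, measured 1.35, 0.967 and 1.61 CPM in the control and 1.19, 0.764 and 0.779 at 80 µM, which overlap.

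**Figure D4:**
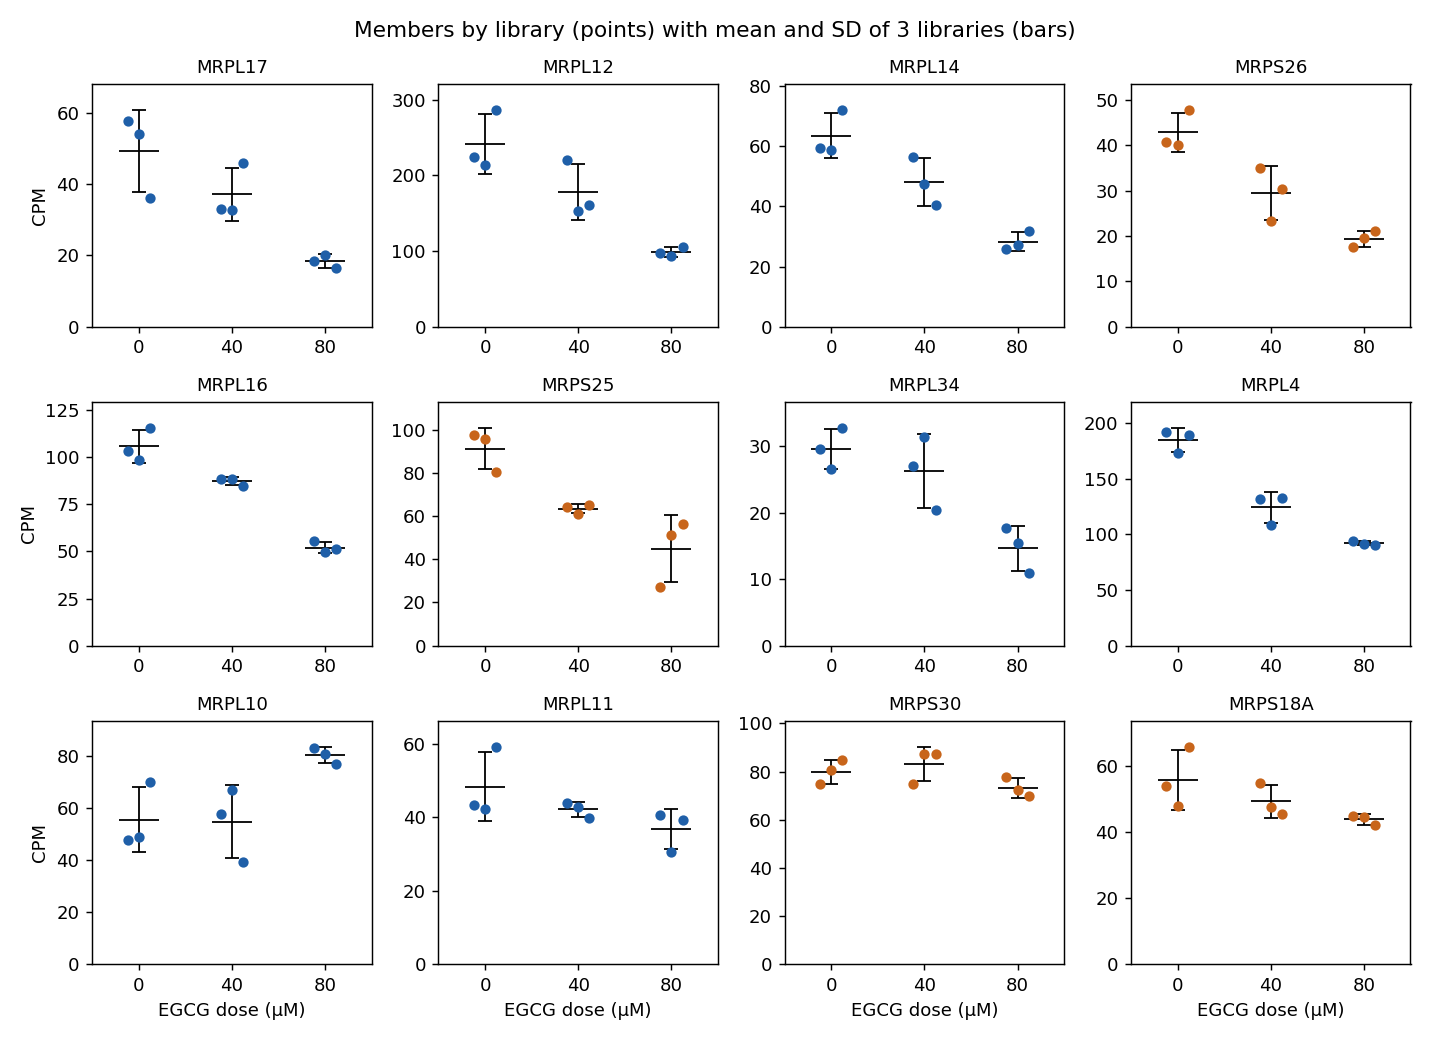
CPM (y axis) by EGCG dose (x axis, µM) for 8 members with the largest called falls (upper 2 rows) and 4 members described because of their place in the ribosome (lower row); points are libraries, bars the mean and SD of 3, and colours the symbol (MRPL blue, MRPS orange). In the upper rows every 80 µM library lies below every control library, while MRPL10 lies above its controls (77.1 to 83.2 against 47.8 to 70.0 CPM) and MRPS30 overlaps them.

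Some symbols do not match the place of the protein. The MRPS18 proteins are 3 relatives of bacterial S18, and MRPS18A is found in the large subunit. MRPS18A measured 53.9, 48.0 and 65.8 CPM in the control and 45.0, 44.7 and 42.1 at 80 µM, which did not overlap. Its log2 fold change of -0.35 ± 0.14 was not called (edgeR adjusted p = 0.0686), except without control replicate 2 (0.0370), and RSPH9 on the opposite strand shares 47.0% of its exonic bases. MRPS18C measured 38.9, 37.4 and 38.7 CPM in the control and 31.7, 32.4 and 36.9 at 80 µM (-0.19 ± 0.15, adjusted p = 0.365). Its libraries did not overlap, and ABRAXAS1 on the opposite strand shares 40.2% of its exonic bases.

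MRPS30, also a large-subunit protein by structure, measured 74.8, 80.5 and 84.7 CPM in the control and 77.7, 72.2 and 69.9 at 80 µM. Its log2 fold change of -0.13 ± 0.11 was not called (edgeR adjusted p = 0.387), and the libraries overlapped. MRPS36 (KGD4) is now known as a subunit of the 2-oxoglutarate dehydrogenase complex and not of the ribosome. It measured 7.96, 11.4 and 11.6 CPM in the control and 10.6, 11.1 and 9.04 at 80 µM, a log2 fold change of -0.01 ± 0.18 (adjusted p = 0.979). Neither it nor MRPS30 differed beyond the spread between libraries.

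Of the 47 tested members not called at 80 µM, 17 had a log2 fold change within 0.2 of 0, and 13 had 80 µM libraries all below the control. Over all genes tested, called or not, 25.3% separated downward in this way, and genes not called were not counted apart. Some members varied widely between libraries. In 10 of 77 members the libraries of some dose spanned more than 2-fold, and 1 of these, MRPS25, was called. The next 3 were chosen after their values were seen. MRPL49, at the top of the fold changes, measured 34.7, 19.9 and 25.9 CPM in the control and 112, 26.2 and 40.2 at 80 µM (1.14 ± 0.57, edgeR adjusted p = 0.148). MRPL30 measured 14.6, 13.6 and 46.6 CPM in the control and 34.0, 64.5 and 26.1 at 80 µM. MRPS2 measured 38.1, 134 and 112 CPM in the control and 77.1, 27.5 and 108 at 80 µM. In each of the 3 the groups overlapped.

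Between the doses, at 80 µM against 40 µM, 23 of 77 members were called lower (29.9%) and 0 higher by edgeR's quasi-likelihood test. The 23 were 16 MRPL and 7 MRPS genes. Over all genes 23% were called in this comparison, 12.1% lower and 10.9% higher. At an unadjusted p under 0.05, 31 were lower (40.3%) and 1 higher (1.3%), against 18.6% and 17.2% of all genes. DESeq2 called 23 lower and 1 higher, where it called 12% of all genes lower and 11.6% higher. With limma-voom 23 were lower and 0 higher, against 11.8% and 11.3% of all genes. The 80 µM libraries all lay below the 40 µM libraries in 37 members, against 21.5% of all genes. The median log2 fold change was -0.35 for MRPL and -0.25 for MRPS genes, against -0.01 for all genes. Of the 23, 20 were also called lower at 80 µM against control, a comparison that shares the 80 µM libraries. The other 3, MRPL35, MRPS23 and MRPS31, were named after their values were seen. Among called members the largest falls over this step were those of MRPL17, MRPL12, MRPL34 and MRPL50. MRPS12, which was not called, had a log2 fold change of -1.07 ± 0.36 (edgeR adjusted p = 0.0547) from 10 to 34 counts per library. The count of lower calls dropped to 10 without 80 µM replicate 2 and to 13 without 80 µM replicate 3. Without 40 µM replicate 2 it was 14, with 1 called higher. The share of all genes called lower dropped as well in these refits, to 6.3%, 6.93% and 8.61% in that order. In the last, 7.73% of all genes were called higher.

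Overlap with other genes and transcript properties were measured beside the calls. Of the 77 tested members 26 share over 10% of their exonic bases with another annotated gene, and 12 of these were called lower at 80 µM. Of the 51 that share less, 18 were called. The called members had a median GC content of 49.1% in their longest transcript, against 45.5% for the members not called. Across members, GC content and log2 fold change had a Spearman correlation of -0.29 at 80 µM and -0.49 at 40 µM. Across the protein-coding genes tested the same values were -0.24 and -0.49. These are descriptions across genes, which are not independent replicates and share their libraries, and the part of GC content in the falls was not tested.

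The letters searched in the RefSeq windows were also counted by response at 80 µM. CCGGAAG was in the windows of 10 of 27 called members and of 19 of 41 tested members not called. The median log2 fold change at 80 µM was -0.34 with it and -0.43 without it. The YY1 motif was in 4 of 27 and 8 of 41, with medians of -0.48 and -0.39. The E-box CACGTG was in 0 of 27 and 6 of 41, with medians of -0.15 and -0.42, and GGGCGG in 20 of 27 and 22 of 41, with medians of -0.42 and -0.32. No test was made of these counts.

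Genes that work with the ribosome were compared through lists chosen beside the members. At 80 µM 17.5% of all genes tested were called lower and 17.4% higher. Of 5 mitochondrial ribosomal proteins without an MRP symbol, 4 fell at 80 µM. GADD45GIP1 had a log2 fold change of -0.87 ± 0.14 (edgeR adjusted p = 0.000984), CHCHD1 -0.87 ± 0.16 (0.00183), AURKAIP1 -0.70 ± 0.20 (0.0210) and PTCD3 -0.61 ± 0.11 (0.00167). Of 27 assembly and rRNA modification factors 12 fell (44.4%) and 1 rose (3.7%), with a median of -0.29. RBFA, which matures the small-subunit rRNA, went from 50.9 ± 10.5 to 23.3 ± 1.88 CPM (-1.12 ± 0.16, adjusted p = 0.000454). The riser was NSUN4, an rRNA methyltransferase, chosen here after its value was seen (1.02 ± 0.26, adjusted p = 0.0109).

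Of 16 mitochondrial translation factors 4 fell (25%) and 1 rose (6.25%), against 17.5% and 17.4% of all genes, and the median was -0.18. TUFM, the elongation factor that delivers tRNAs, went from 445.6 ± 46.9 to 264.8 ± 10.3 CPM (-0.75 ± 0.10, edgeR adjusted p = 0.000335). GFM1, which moves the ribosome along the mRNA, changed by -0.76 ± 0.10 (0.000299). PDF and METAP1D, which remove the formyl group and then the first methionine of new mitochondrial proteins, changed by -0.68 ± 0.11 (0.00130) and -0.92 ± 0.14 (0.000701). Of 9 genes of mitochondrial DNA upkeep and transcription 3 fell (33.3%), POLRMT (-0.63 ± 0.12), TFAM (-0.47 ± 0.13) and TFB2M (-0.42 ± 0.12). Of 16 genes of mitochondrial RNA processing 6 fell (37.5%), among them PNPT1, a ribonuclease (-0.75 ± 0.14), and TBRG4 (-0.56 ± 0.11).

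Of 12 regulators 3 rose (25%) and 2 fell (16.7%) at 80 µM, against 17.4% and 17.5% of all genes. PPARGC1A, a coactivator known for raising mitochondrial gene expression, rose from 15.1 ± 3.64 to 39.9 ± 4.28 CPM (1.40 ± 0.17, edgeR adjusted p = 0.000196), while its relatives PPARGC1B (-0.96 ± 0.14, 0.000577) and PPRC1 (-0.53 ± 0.12, 0.00535) fell. DDIT3, a stress-induced factor, rose by 2.77 ± 0.20 on the log2 scale (7.87e-06). Of 11 mitochondrial proteases and chaperones 3 rose and 3 fell (27.3% each), against 17.4% and 17.5% of all genes. LONP1 (1.05 ± 0.12, 0.000124) and HSPA9 (0.87 ± 0.10, 0.000107) were among those that rose. HSPE1 (-0.91 ± 0.13, 0.000539) and AFG3L2 (-0.52 ± 0.08, 0.000973) were among those that fell.

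For scale, 2 further families were counted in the same way, against 17.5% of all genes called lower and 17.4% higher. Of 82 cytosolic ribosomal protein genes 2 were lower (2.44%) and 1 higher (1.22%) at 80 µM, with a median log2 fold change of -0.05. Of 75 nuclear-encoded respiratory chain subunits, which join the products of the mitochondrial ribosome, 40 were lower (53.3%) and 1 higher (1.33%). Their median was -0.42. The differences between families were not tested.

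**Figure D5:**
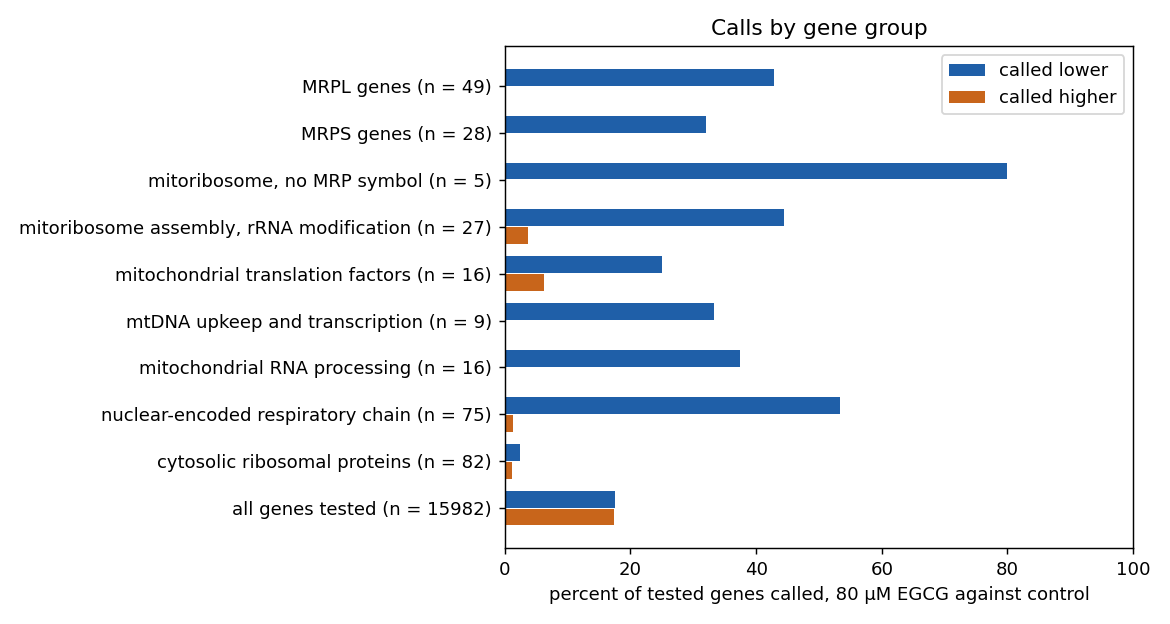
Percent of tested genes called lower or higher at 80 µM against control (x axis) in each gene group (y axis, n tested genes). Lower calls make up 42.9% of MRPL and 32.1% of MRPS genes and 17.5% of all genes tested, and higher calls are at 0 in both MRP groups and at 17.4% of all genes.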

How the data were processed

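Per the file headers, the table the authors deposited gives each gene a count and an FPKM in each library. The deposited counts are whole numbers without normalization, and deposited FPKM adjusts for gene length and library size. GRCh38, edgeR, HISAT2, SAMtools 1.3.1 and CASAVA 1.8 are listed, per the submitters' processing notes, with no role or order. The counting program, strand setting and annotation release were not given in the sources used here. Symbols, biotypes, positions and exon overlaps came from GENCODE 29 (GRCh38), and promoter sequences from RefSeq on GRCh38.p14.

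In R 4.3.3, edgeR 4.0.16 was fitted to the counts of all 9 libraries (quasi-likelihood test), with dose as the only factor, TMM scaling and filterByExpr by group. The 15982 genes kept were fitted together, and the Benjamini-Hochberg adjustment ran over all of them, with calls under 0.05. The common biological coefficient of variation was 0.187, with 6 residual degrees of freedom. Every adjusted p is from this test unless another tool is named. Standard errors are the size of the log2 fold change over the root of F. FPKM entered no test. The scripts were tested on simulated data.

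Alternatives were RLE scaling, no filter, DESeq2 1.42.0, limma-voom (limma 3.58.1), a replicate block, only the 6 libraries compared, each library left out, MRPS36 left out, subunits by structure and summed FPKM. Leaving out members that share over 10% of exonic bases, and MRPL12 from the ratio, were chosen after seeing the data.

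The members and all gene lists were chosen with earlier results of these data known. Named members are the 8 largest called falls and rises at 80 µM, the 4 largest in each other comparison, the 3 highest and 3 lowest by control FPKM, and MRPS18A, MRPS18B, MRPS18C, MRPL10, MRPL11, MRPL12, MRPS30 and MRPS36. From each other list the 4 members with the smallest p at 80 µM could be named. Any other member named was picked with its values in view, as the text says. The value of 1 marker of another cell type is not reported here.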

Additional observations from a re-analysis of the deposited data

How the results depend on the processing

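At 40 µM the single call became 3 with DESeq2. It became 0 with only the 6 libraries compared or without members that share over 10% of exonic bases. When each library was left out it ran from 0 to 2. Over all genes the share called lower was 2.56% with DESeq2, 0.394% with the 6 libraries and 0.225% to 1.27% with a library left out. At 80 µM against control the 30 calls ran from 21 to 32 with a library left out, where 12.2% to 17.7% of all genes were called lower. In those refits 13.4% to 17.3% of all genes were called higher. Without members that share exonic bases the calls were 18 of 51. Between the doses the 23 calls ran from 10 to 25 and were 15 of 51. Of the 30 members called at 80 µM, 20 were called in all 15 refits, as were 9 of the 23 between the doses.

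With a library left out, the median log2 fold change at 40 µM ran from -0.11 to -0.01 (MRPL) and from -0.12 to 0.00 (MRPS). The median log2 fold change at 80 µM against control ran from -0.48 to -0.34 (MRPL) and from -0.38 to -0.29 (MRPS), and between the doses from -0.46 to -0.32 and from -0.31 to -0.19. The MRPL to MRPS ratio in the control, at 40 and at 80 µM was 2.309, 2.229 and 2.036 on summed FPKM, 1.839, 1.9 and 1.783 with subunits assigned by structure, and 1.483, 1.542 and 1.459 without MRPL12.

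Same-numbered libraries did not visibly deviate together (correlations from -0.139 to 0.051, against -0.108 to 0.116 for unlike numbers). These values cannot show whether the numbers mark paired cultures, which the labels do not say. With a replicate block 1, 30 and 21 members were called lower in the 3 comparisons, against 0.332%, 15.9% and 10.2% of all genes. Of the 30 at 80 µM, 29 were among those called without it.

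Members whose libraries spanned over 2-fold were called in 1 of 10 cases at 80 µM. MRPS12 had as few as 10 counts in a library, and MRPS18B has no value.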
